A study of Homo sapiens with 15 samples.

Results

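The genes described here encode the proteins of the mitochondrial ribosome that carry an MRP symbol. They were taken by rule: every protein-coding gene whose symbol begins with MRPL, for the large subunit, or MRPS, for the small subunit, matched to the Ensembl identifiers of all 15 count files. The rule gave 78 genes of the 60601 shared by the files, 49 MRPL and 29 MRPS. Of these, 48 have a counterpart in bacterial ribosomes and 29 are specific to mitochondria. MRPS36 stands in neither class, since its product is now known as KGD4, a component of the oxoglutarate dehydrogenase complex.

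All libraries came from Caco-2, an established line of human colorectal carcinoma cells that grow into an epithelial layer with enterocyte features. Monolayers were exposed for 24 h to a commercial dishwasher rinse aid diluted 1:10000 (5 libraries) or 1:40000 (5 libraries), and unexposed monolayers served as controls (5 libraries). No transgene, knockout or other agent was named for any group, and the rinse aid's composition was not given. The labels do not say if the 5 libraries of a group are separate cultures, and the p-values below then describe the spread among these libraries, which may be technical.

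Mitochondrial ribosomes translate the few respiratory chain proteins that mitochondrial DNA still encodes. Their ribosomal RNAs are transcribed inside the organelle, MT-RNR1 for the small subunit and MT-RNR2 for the large, whereas all of their proteins are encoded in the nucleus, made in the cytosol and imported. Enterocytes rely on mitochondria for much of the energy behind nutrient and ion transport. Promoters of many such nuclear genes are known to bind NRF1 and GABP, a factor of the ETS family also called NRF2, which is distinct from the antioxidant regulator of the same abbreviation.

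The 3 groups did not come from the same processing. Per the file headers, the 10 rinse aid files were aligned with HISAT2 and the 5 control files with RNA STAR, and the files listed 61544 and 60649 genes. In either comparison with control, exposure cannot be told apart from aligner and annotation. The 2 dilutions share both, and their comparison is given first. Total counts ran from 5489425 to 9555632 at 1:10000, from 2551839 to 172092447 at 1:40000 and from 4333226 to 14230853 in controls. Of 11 enterocyte-like markers 10 passed the filter on low counts, summing to 11309 to 13301 CPM (counts scaled to the size of the library) at 1:10000, 9240 to 10533 at 1:40000 and 9504 to 11208 in controls, whereas KRT20 was at 0 in the 1:10000 and 1:40000 libraries. The sum was set by abundant genes: 2 of the 10 were higher and 6 lower at 1:10000 than at 1:40000 (median log2 fold change -0.37), 2 higher and 7 lower at 1:10000 than in controls (-0.60), and none higher and 3 lower at 1:40000 than in controls (-0.06). Of 7 fibroblast markers 5 passed, summing to 89.3 to 109 CPM at 1:10000, 139 to 163 at 1:40000 and 178 to 194 in controls, and of 5 leukocyte markers none passed. The part of these differences in the results below was not tested.

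The 250 bases before the annotated start were searched on both strands for 4 short motifs, over 85 promoters that RefSeq lists for 69 of the genes. The ETS letters CCGGAAG occurred in 27 of the 85 promoters, or 31.8%, against 2372 of 22199 promoters of all protein-coding genes, or 10.7%. The share was 30.8% for MRPL and 33.3% for MRPS promoters. The YY1 letters AAGATGGCG occurred in 3 promoters, those of MRPL32, MRPL36 and MRPL52, or 3.53%, against 0.748% of all promoters. The NRF1 letters GCGCATGCG were in 3.53%, against 2.05%, and the CRE letters TGACGTCA in 1.18%, against 2.01%. The ETS and YY1 letters can share the 3 bases AAG, but no promoter of these genes held both, and that of MRPS18C held ETS and NRF1 letters. A match of letters is a description of the sequence and not a binding site.

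The 7 genes shown next were all higher at 1:10000 in a comparison below. Of 23 tested genes with ETS letters, 6 were higher and 12 lower at 1:10000 than in controls, and none of those 12 is shown. The 120 bases before the first listed start are given for the 7 genes, 5 with ETS letters and 2 without, from RefSeq on GRCh38.p14. Each is written 5′ to 3′ on the gene's own strand, with the ETS letters, or their reverse complement, in capitals. In order they lie at chr19:3762562-3762681 (plus strand), chr3:179604639-179604758 (minus), chr6:42217862-42217981 (minus), chr17:75012550-75012669 (plus), chr3:131502972-131503091 (minus), chr5:44808827-44808946 (plus) and chr12:93467394-93467513 (plus).
MRPL54: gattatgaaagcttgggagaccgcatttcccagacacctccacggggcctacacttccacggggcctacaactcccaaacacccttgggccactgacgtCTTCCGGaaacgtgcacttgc
MRPL47: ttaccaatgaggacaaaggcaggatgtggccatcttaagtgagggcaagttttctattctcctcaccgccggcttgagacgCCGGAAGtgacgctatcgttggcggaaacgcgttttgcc
MRPS10: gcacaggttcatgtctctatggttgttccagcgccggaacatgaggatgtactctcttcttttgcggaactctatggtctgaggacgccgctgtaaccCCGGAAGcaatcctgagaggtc
MRPL58: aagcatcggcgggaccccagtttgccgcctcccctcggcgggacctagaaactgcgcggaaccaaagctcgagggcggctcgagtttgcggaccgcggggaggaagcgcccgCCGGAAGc
MRPL3: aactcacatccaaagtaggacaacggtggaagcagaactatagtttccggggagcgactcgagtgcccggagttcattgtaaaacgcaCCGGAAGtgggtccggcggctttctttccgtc
MRPS30: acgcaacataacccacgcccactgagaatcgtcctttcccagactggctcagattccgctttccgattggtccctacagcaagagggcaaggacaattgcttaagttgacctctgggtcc
MRPL42: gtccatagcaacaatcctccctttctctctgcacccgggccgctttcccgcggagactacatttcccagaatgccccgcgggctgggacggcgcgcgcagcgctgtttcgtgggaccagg

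In unexposed Caco-2 cells the family spanned a wide range of levels. Per kilobase of annotated exon, the highest transcript was MRPL51, a mitochondria-specific protein of the large subunit, at 129 ± 11.2 CPM per kb (SD, n = 5 here and for every group mean below). MRPS35, a mitochondria-specific protein of the small subunit, followed at 102 ± 4.05 CPM per kb, and MRPS16, counterpart of bacterial S16, at 82.8 ± 4.37 CPM per kb. The ranges of MRPL51 and MRPS35 over control libraries, 111 to 139 and 96.7 to 105 CPM per kb, did not overlap, and neither did those of MRPS35 and MRPS16, which spanned 76.9 to 88.8. The median over the 75 genes that passed the filter was 19.6 CPM per kb, with 22.6 for MRPL and 15.8 for MRPS. These lengths join all annotated exons of a gene, so a gene with long rare isoforms has an understated value.

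The 3 genes that did not pass the filter lay at the other end. MRPS24 averaged 0.232 CPM per kb in controls, MRPL38 averaged 0.151, and MRPL53 had no count there and 1 count in all 15 libraries. Each shares exons with another annotated gene, MRPS24 with the readthrough gene URGCP-MRPS24, MRPL53 with CCDC142 and MRPL38 with AC087289.2 and AC087289.3. Exon sharing is not particular to them, since it holds for 41 of the 78 genes, MRPL51 and MRPS16 among them. Among the 71 genes measured in every group, the median coefficient of variation between libraries was 8.01% at 1:10000, 10.1% at 1:40000 and 7.42% in controls, below the 11.3%, 11.6% and 10.7% over all genes tested. The comparison with all genes was not matched for expression level.

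The comparison of 1:10000 with 1:40000 asked how the stronger exposure differed from the weaker one. More mitochondrial ribosomal protein genes were higher than lower at 1:10000, and the differences were small. In edgeR's quasi-likelihood test, with p adjusted by Benjamini-Hochberg over all 13158 genes tested and called under 0.05, 27 of 75 genes were higher and 7 were lower at 1:10000, while 41 were not called. That is 36.0% higher and 9.33% lower, against 28.3% higher, 29.1% lower and 57.3% in either direction among all genes tested. 4 of the 75 genes, described below, were near absent at both dilutions, passed the filter through the control libraries and could hardly be called here. Without them 27 of 71 were higher, or 38.0%, and 7 lower, or 9.86%. The median log2 fold change over the 75 was 0.09, or 0.12 without those 4, against -0.007 over all genes. Only MRPL32 and MRPL54 were called at 1.5-fold or more, both higher, where 10.5% of all genes were higher and 14.2% lower at that size. The 1:10000 and 1:40000 libraries did not overlap for 17 higher and 6 lower genes, against 20.4% and 19.9% of all genes.

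These counts moved with the scaling and with a single library. Under upper-quartile scaling 22 genes were higher and 12 lower, and without 1:40000 replicate 1, the library of 172092447 counts, 14 were lower. RNA of whole monolayers was measured, so fewer cells of a type and less RNA per cell cannot be told apart in any of these values.

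**Figure D1:**
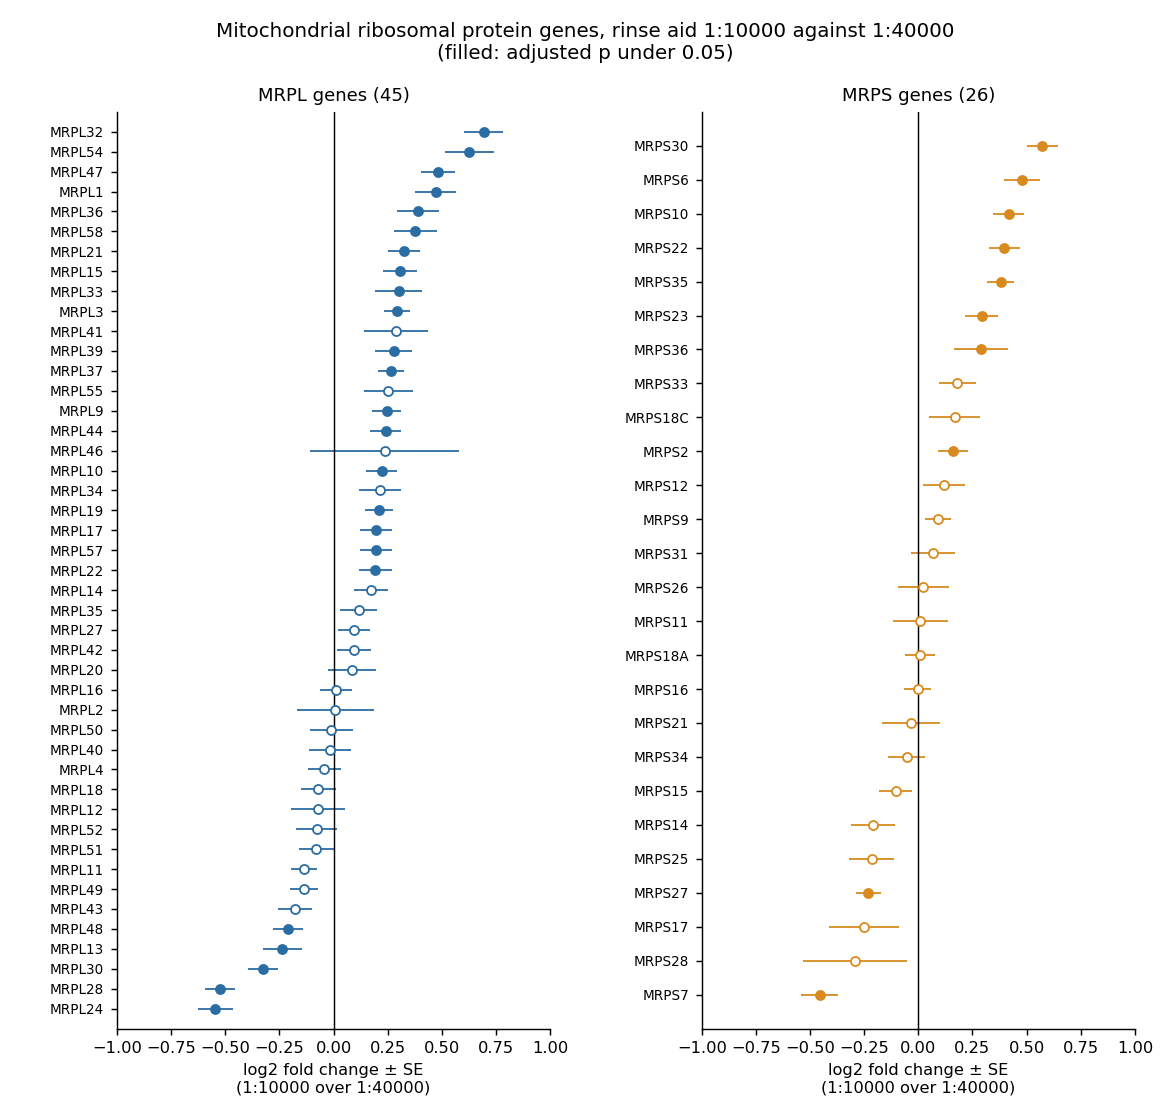
Log2 fold change of 1:10000 over 1:40000 with its standard error (SE) for 45 MRPL genes (left) and 26 MRPS genes (right), sorted by size; filled points were called at an adjusted p under 0.05. The called genes run from MRPL24 at -0.55 to MRPL32 at 0.69, and 19 MRPL genes and 8 MRPS genes were called higher.

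MRPL32, whose protein is known from yeast and mouse work to be matured by the m-AAA protease before it joins the large subunit, had 53.1, 45.8, 40.6, 42.7 and 40.9 CPM at 1:10000, against 26.1, 29.4, 28.0, 28.9 and 26.9 CPM at 1:40000. Every 1:10000 library was above every 1:40000 library, and the log2 fold change was 0.69 ± 0.088 (SE), with an adjusted p of 3.54e-07 by edgeR's quasi-likelihood test. MRPL32 (chr7:42932200-42948958, GRCh38 here and below) shares exons with PSMA2. In all, 41 of the 78 genes share exon positions with another gene. Among those named below they include MRPL47, MRPS6, MRPL28, MRPS7, MRPL30, MRPL13, MRPL37, MRPS22, MRPL51 and MRPL49. The strand setting is not given, so their counts are uncertain. MRPL54, a mitochondria-specific protein near the L7/L12 stalk, had 25.6, 22.4, 17.9, 27.0 and 26.1 CPM at 1:10000, against 12.8, 15.7, 15.6, 17.4 and 16.8 CPM at 1:40000. The groups did not overlap, though 1:10000 replicate 3 lay close to the highest 1:40000 library, and the log2 fold change was 0.63 ± 0.11.

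MRPS30 (chr5:44808925-44820428) carries a small-subunit symbol, but its protein sits in the large subunit. It had 135, 118, 123, 112 and 119 CPM at 1:10000, against 81.7, 89.4, 83.1, 77.5 and 79.3 CPM at 1:40000, with no overlap and a log2 fold change of 0.57 ± 0.071. MRPL47, counterpart of bacterial L29 at the exit of the peptide tunnel, had 135, 118, 101, 109 and 103 CPM at 1:10000, against 74.4, 90.1, 78.8, 81.7 and 83.9 CPM at 1:40000. Here too all 1:10000 libraries were the higher ones, with a log2 fold change of 0.48 ± 0.077. MRPS6, a small-subunit protein that shares exons with SLC5A3, had 64.6, 58.4, 69.0, 66.2 and 63.6 CPM at 1:10000, against 39.6, 47.0, 49.0, 46.3 and 51.1 CPM at 1:40000. The groups were again apart, and the log2 fold change was 0.48 ± 0.084. The adjusted p of these 4 genes lay between 2.52e-07 and 4.53e-05 by edgeR's quasi-likelihood test.

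MRPL24 and MRPL28 were the lowest called genes. MRPL24 (chr1:156737303-156741590), counterpart of bacterial L24 near the tunnel exit, had 25.2, 27.3, 27.0, 29.7 and 28.7 CPM at 1:10000, against 37.0, 43.2, 40.2, 39.0 and 43.5 CPM at 1:40000. MRPL28 (chr16:366969-371289), a large-subunit protein, had 51.5, 58.4, 56.6, 51.9 and 60.3 CPM at 1:10000, against 73.7, 84.8, 77.2, 82.4 and 84.3 CPM at 1:40000. Neither gene's groups overlapped, with log2 fold changes of -0.55 ± 0.080 for MRPL24 and -0.52 ± 0.069 for MRPL28 (adjusted p of 2.86e-06 and 5.66e-07, edgeR's quasi-likelihood test).

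MRPS7, counterpart of bacterial S7 in the head of the small subunit, had 48.4, 51.3, 54.9, 45.6 and 53.5 CPM at 1:10000, against 57.2, 60.7, 74.5, 75.7 and 78.7 CPM at 1:40000. The 1:40000 libraries were spread, with 2 of them near the 1:10000 values, but all lay above, and the log2 fold change was -0.46 ± 0.086. MRPL30 had 81.6, 77.3, 67.6, 66.4 and 70.0 CPM at 1:10000, against 91.8, 98.5, 86.2, 88.7 and 91.6 CPM at 1:40000, without overlap and with a log2 fold change of -0.33 ± 0.071. MRPL13 averaged 39.4 ± 2.97 CPM at 1:10000 and 47.0 ± 5.93 CPM at 1:40000. Its groups overlapped, and its adjusted p of 0.0286 by edgeR's quasi-likelihood test became 0.0939 without 1:10000 replicate 2.

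The control libraries placed these genes differently. For MRPL32 they ran from 29.5 to 38.5 CPM, below every 1:10000 library and above every 1:40000 library, with log2 fold changes against control of 0.35 ± 0.089 at 1:10000 and -0.34 ± 0.089 at 1:40000. MRPL54 in controls ran from 18.8 to 21.6 CPM, and it was called against control at 1:40000 (-0.39 ± 0.11) but not at 1:10000 (0.24 ± 0.11, adjusted p of 0.063 in edgeR's quasi-likelihood test). MRPS6 was likewise lower at 1:40000 than in controls (-0.39 ± 0.084) and was not called at 1:10000 against control (0.09 ± 0.084). MRPS30, MRPL47, MRPL24 and MRPL28 were called against control at 1:10000 and not at 1:40000, where their log2 fold changes lay between -0.08 and 0.06.

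The other 22 genes that were higher at 1:10000 than at 1:40000 had log2 fold changes between 0.16 for MRPS2 and 0.47 for MRPL1. Among the large-subunit genes, MRPL44, a relative of ribonuclease III, averaged 116 ± 13.8 CPM at 1:10000 and 98.8 ± 3.21 CPM at 1:40000 (0.24 ± 0.072), with overlapping groups. MRPL37, a mitochondria-specific protein, averaged 133 ± 4.16 CPM at 1:10000 and 111 ± 7.59 CPM at 1:40000 (0.27 ± 0.061), with groups apart. Among the small-subunit genes, MRPS22, mitochondria-specific, averaged 81.6 ± 6.65 CPM at 1:10000 and 62.4 ± 4.41 CPM at 1:40000 (0.40 ± 0.073), again without overlap. MRPS36 and MRPS2 were the calls nearest the threshold, both with overlapping groups. MRPS36 had a log2 fold change of 0.29 ± 0.12 and an adjusted p of 0.0475, and MRPS2 an adjusted p of 0.0478, in edgeR's quasi-likelihood test. The remaining lower genes were MRPS27 (-0.23 ± 0.058) and MRPL48.

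**Figure D2:**
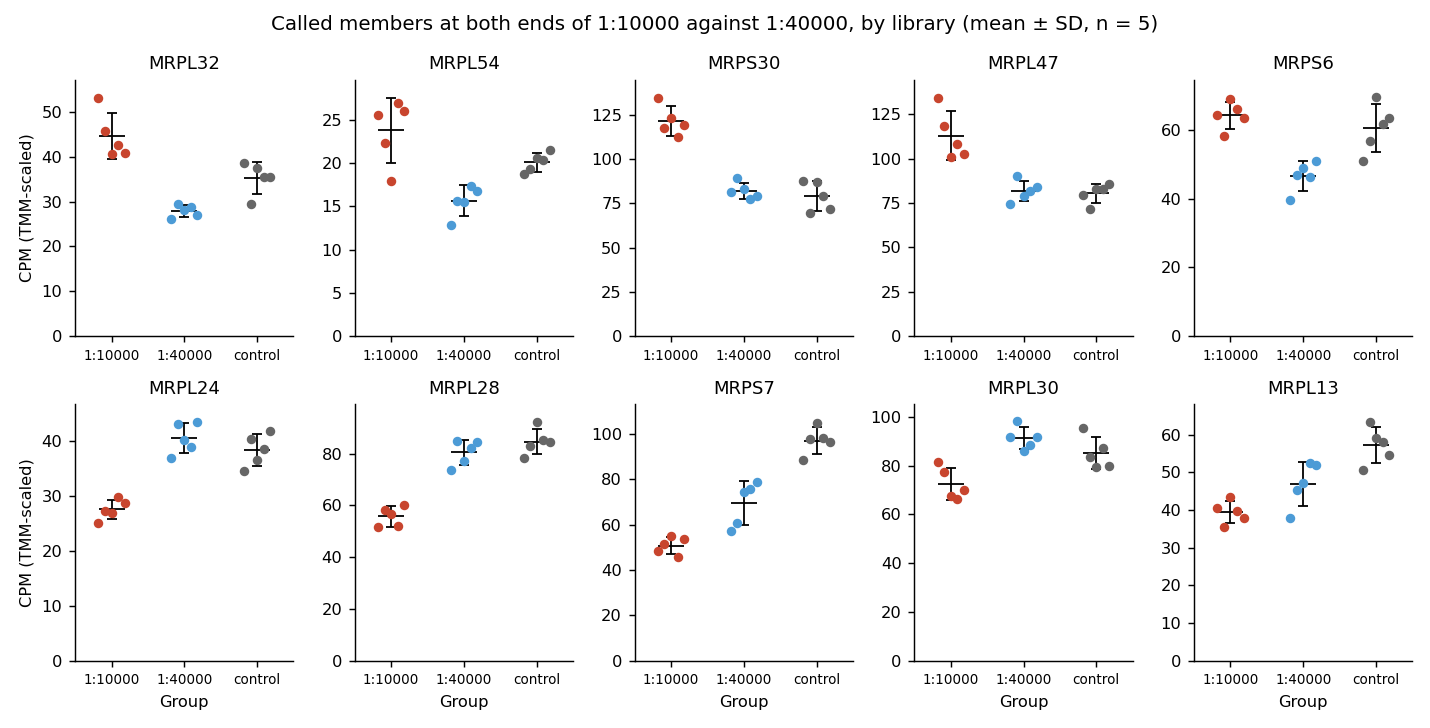
CPM per library (y axis) at 1:10000, at 1:40000 and in controls for the 5 highest and the 5 lowest called genes of 1:10000 against 1:40000; bars are mean ± SD over 5 libraries. MRPL24 and MRPL28 are lower at 1:10000 than in both other groups, while MRPL32, MRPL54 and MRPS6 are lowest at 1:40000.

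Both subunits had more higher than lower genes, but the share of higher MRPS genes was near that of all genes. Of the 47 MRPL genes tested 19 were higher and 5 lower at 1:10000, with a median log2 fold change of 0.17. Of the 28 MRPS genes 8 were higher and 2 lower, with a median of 0.02, where 28.3% of all genes were higher and 29.1% lower. Without the 4 near-absent genes, 19 of 45 MRPL genes were higher, or 42.2%, and 8 of 26 MRPS genes, or 30.8%. The medians were then 0.19 for MRPL and 0.045 for MRPS. Placed by where the protein sits, 20 of 49 large-subunit genes were higher, or 40.8%, and 5 lower, and 6 of 25 small-subunit genes were higher, or 24%, and 2 lower. These counts by place include the near-absent genes. The difference of the medians, MRPL minus MRPS, was 0.16, or 0.15 without the 4 near-absent genes. With those genes kept, it became 0.074 without 1:40000 replicate 1 and 0.087 without 1:10000 replicate 1. Whether the subunits differ was not tested, because the genes were chosen with results known.

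Counted over whole libraries, the 45 MRPL genes measured in all groups summed to 2871 to 3211 CPM at 1:10000, 2581 to 2910 at 1:40000 and 2886 to 3128 in controls. The 26 MRPS genes summed to 1702 to 1875 CPM at 1:10000, 1520 to 1668 at 1:40000 and 1636 to 1723 in controls. The MRPL sum over the MRPS sum was 1.68 to 1.73 at 1:10000, 1.70 to 1.80 at 1:40000 and 1.76 to 1.85 in controls. At 1:10000 the ratio lay below every control library, while the 1:40000 libraries overlapped both other groups. The sums are set mostly by abundant genes, and against control the ratio and the difference of medians given below point in opposite directions.

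**Figure D3:**
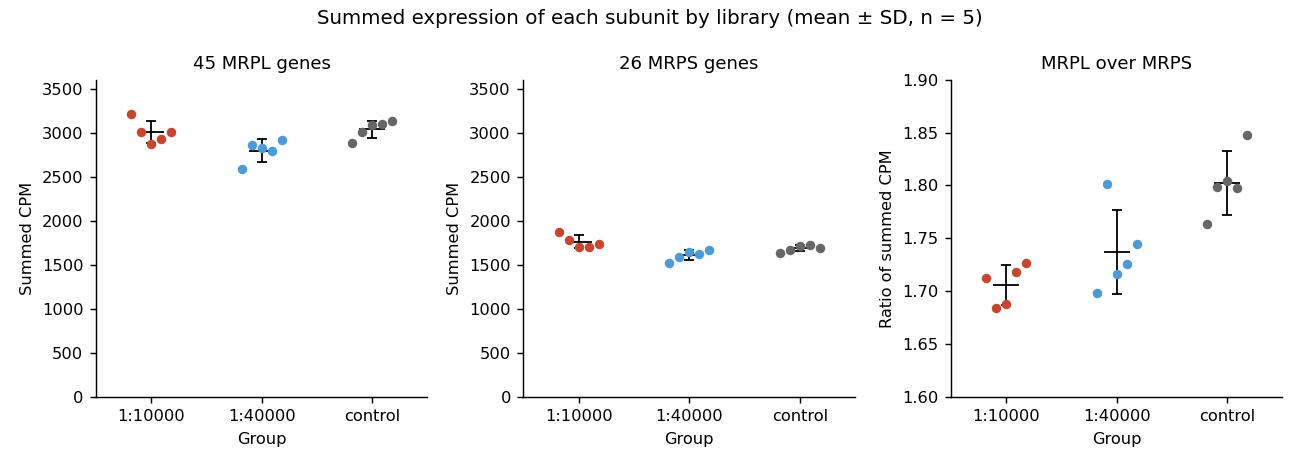
Summed CPM of 45 MRPL genes, summed CPM of 26 MRPS genes and their ratio (y axes) in each library at 1:10000, at 1:40000 and in controls; bars are mean ± SD over 5 libraries, and the ratio axis does not start at 0. The ratio spans 1.68 to 1.73 at 1:10000 and 1.76 to 1.85 in controls.

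By role, the called genes between the dilutions were spread over several parts of the ribosome, in groups too small to be read against the 28.3% and 29.1% of all genes. Of 5 tested stalk genes, 3 were higher and none lower: MRPL54, MRPL1 (0.47 ± 0.094), which forms the L1 stalk, and MRPL10 (0.22 ± 0.073), which anchors the L7/L12 stalk. MRPL12, the protein that MRPL10 anchors, had a log2 fold change of -0.07 ± 0.13 and was not called. Of 6 tested genes at the exit tunnel, MRPL47, MRPL17 (0.20) and MRPL22 (0.19) were higher and MRPL24 was lower, while the other two, MRPL23 and MRPL45, were near absent at both dilutions. Of 7 tested genes of the central protuberance, MRPL58 was higher (0.38 ± 0.099) and MRPL48 lower (-0.21 ± 0.069). Of 6 tested genes of the decoding region and mRNA channel, MRPS2 was higher (0.16 ± 0.069) and MRPS7 lower. MRPS5, also of this group, was near absent at both dilutions. Genes with a bacterial counterpart gave 16 higher and 5 lower of 47 tested, and mitochondria-specific genes 10 higher and 2 lower of 27. Both sets include near-absent genes.

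Genes with ETS letters before the start gave 8 higher and 2 lower of 23 tested, against 15 higher and 4 lower of 43 whose listed promoters lack them. In shares that is 34.8% higher and 8.70% lower, against 34.9% and 9.30%, where all genes had 28.3% and 29.1%. Of the genes tested, 19 had no pseudogene, exon overlap, changed identifier version or copy outside the primary assembly. Of these, 9 were higher and 1, MRPL24, was lower, against 29.1% and 32.6% of all genes that meet the same conditions. Against control at 1:10000, 26.1% of genes with ETS letters were higher and 52.2% lower, against 20.9% and 32.6% without them. All genes had 34.8% and 36.2% there. At 1:40000 against control it was 8.70% and 52.2%, against 11.6% and 41.9%, where all genes had 26.1% and 26%. The 43 without ETS letters include MRPS5, MRPS18B and MRPL45, near absent at both dilutions. No test by ETS letters was made.

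The comparisons with control set each exposed group beside unexposed cells, and exposure cannot be told apart from aligner and annotation in them. At 1:10000 more genes were lower than higher: 17 of 75 were higher, or 22.7%, and 31 were lower, or 41.3%, in edgeR's quasi-likelihood test with p adjusted by Benjamini-Hochberg. Among all genes 34.8% were higher, 36.2% lower and 71.0% called in either direction. The median log2 fold change was -0.14, or -0.04 without the 4 near-absent genes described below, against -0.02 over all genes. Without those 4 genes 27 of 71 were lower, or 38.0%. At least 1.5-fold, 3 were higher and 14 lower, or 10 lower without those 4, where 20.8% and 21.8% of all genes were. Groups did not overlap for 16 higher and 27 lower genes, against 28.8% and 29%. Of the 19 genes free of copies and overlaps, 6 were higher and 6 lower, against 34.5% and 37.1% of such genes, and their median log2 fold change was 0.07, the opposite sign to that of the 75.

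At 1:40000 the lower genes were again the more numerous, with 8 higher, or 10.7%, and 35 lower, or 46.7%, of 75, against 26.1% higher, 26% lower and 52.1% in either direction among all genes by the same test. The median log2 fold change was -0.19, against -0.002 over all genes. Without the 4 near-absent genes 31 of 71 were lower, or 43.7%. None were higher and 10 lower at 1.5-fold or more, where 12.1% of all genes were higher and 8.69% lower. Without the 4 near-absent genes 6 of 71 were lower by that size, a share near that of all genes. Groups did not overlap for 5 higher and 22 lower genes, against 18.1% in each direction over all genes. Without control replicate 1 the higher count was 5. Of the 19 genes free of copies and overlaps 2 were higher and 8 lower, against 26.5% and 24.9%. Both comparisons share the control libraries, so their counts are not independent of each other.

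**Figure D4:**
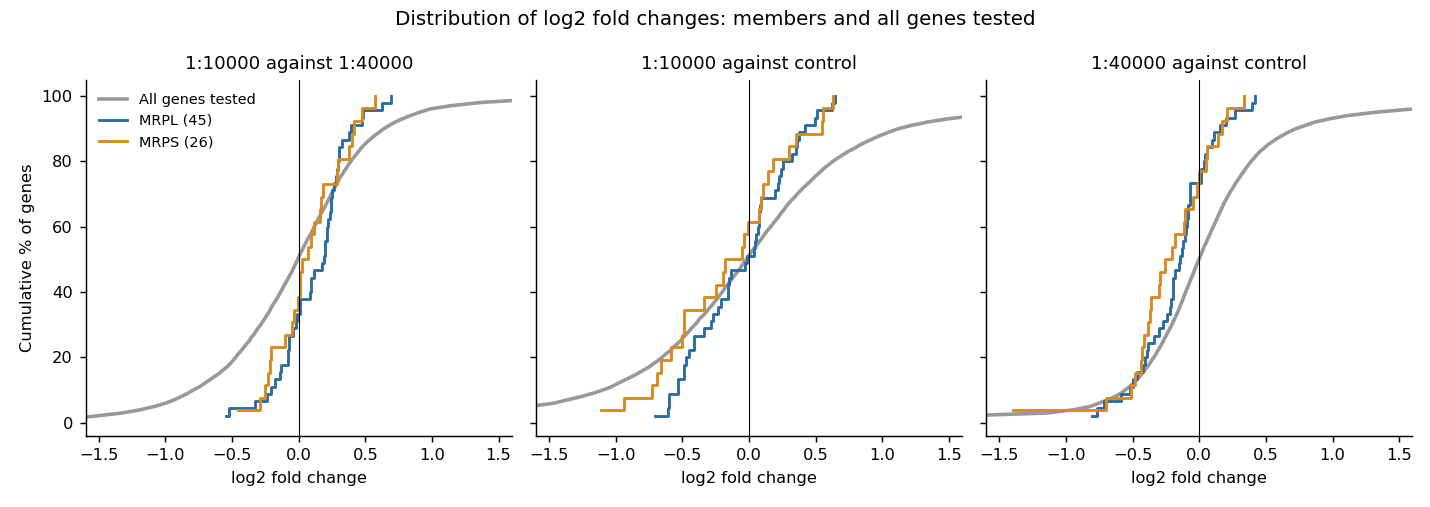
Cumulative percentage of genes (y axis) against log2 fold change (x axis, cut at ±1.6) for 45 MRPL genes, 26 MRPS genes and all 13158 genes tested, in each comparison; the near-absent genes are left out. The members' curves are steeper than that of all genes, and at 1:40000 against control they lie to its left, with medians of -0.15 for MRPL and -0.23 for MRPS.

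MRPL58, a former release factor of the central protuberance that hydrolyses peptidyl-tRNA, was the highest at 1:10000 against control. It had 31.2, 30.3, 34.6, 35.2 and 34.7 CPM at 1:10000 and 24.0, 20.6, 27.6, 25.3 and 28.5 CPM at 1:40000, against 17.8, 22.5, 25.5, 22.4 and 18.1 CPM in controls. Every 1:10000 library was above every 1:40000 and control library, whereas 1:40000 and control overlapped. The log2 fold change was 0.65 ± 0.10 at 1:10000 and 0.27 ± 0.10 at 1:40000 against control, and the call at 1:40000 was lost without control replicate 1 (adjusted p of 0.0298 with all libraries and 0.0842 without it, edgeR's quasi-likelihood test).

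MRPL10 (chr17:47823272-47831534) averaged 253 ± 18.6 CPM at 1:10000, 216 ± 26.6 at 1:40000 and 164 ± 10.1 in controls. It was higher than control at both dilutions, by 0.62 ± 0.074 and 0.40 ± 0.074 on the log2 scale. Neither rinse aid group overlapped the control libraries. MRPS30 averaged 121 ± 8.41 CPM at 1:10000, 82.2 ± 4.55 at 1:40000 and 78.9 ± 8.43 in controls. It was higher at 1:10000 than in controls (0.63 ± 0.072), and the 1:40000 libraries overlapped the controls (0.06 ± 0.072).

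MRPS10 and MRPS35, both of the small subunit, were higher at 1:10000 than in controls by 0.56 ± 0.072 and 0.55 ± 0.063 on the log2 scale. MRPS35 had 344, 317, 273, 276 and 273 CPM at 1:10000, against 229, 233, 228, 228 and 223 CPM at 1:40000 and 209, 191, 208, 197 and 208 CPM in controls. Its 3 groups did not overlap in any pair. At 1:40000 against control the highest called genes also included MRPL42 (0.42 ± 0.080), MRPS27 (0.34 ± 0.058), a protein with pentatricopeptide repeats that bind RNA, and MRPS9 (0.21 ± 0.061). MRPS27 averaged 143 ± 7.39 CPM at 1:10000, 167 ± 8.59 at 1:40000 and 133 ± 6.58 in controls, so that its 1:40000 libraries lay above both other groups.

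MRPL42 had 115, 104, 97.9, 97.8 and 101 CPM at 1:10000 and 91.7, 119, 94.3, 93.3 and 91.5 CPM at 1:40000, against 76.9, 61.5, 74.6, 80.4 and 69.1 CPM in controls. Every rinse aid library was above every control, and the dilutions overlapped, with a log2 fold change between them of 0.09 ± 0.079. MRPS9, counterpart of bacterial S9, averaged 108 ± 7.75 CPM at 1:10000, 101 ± 4.97 at 1:40000 and 87.4 ± 2.22 in controls, and again both dilutions lay above the controls and overlapped each other.

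Apart from the near-absent genes, the lower genes at 1:10000 against control ran from -1.11 for MRPS36 to -0.18 for MRPS18A, and those at 1:40000 from -1.40 for MRPS36 to -0.15 for MRPL11. MRPL51, the highest transcript per length in controls, averaged 133 ± 7.79 CPM at 1:10000, 141 ± 17.2 at 1:40000 and 200.5 ± 17.4 in controls. Both dilutions lay below every control library, with log2 fold changes of -0.60 ± 0.080 and -0.52 ± 0.079. Per kilobase of exon MRPS35, at 149.8 ± 16.4 CPM at 1:10000 and 115 ± 1.91 CPM at 1:40000, then stood above MRPL51, at 85.6 ± 5.02 CPM at 1:10000 and 90.96 ± 11.1 CPM at 1:40000. MRPS16 was level, with 230.2 ± 9.81 CPM at 1:10000, 232 ± 19.2 at 1:40000 and 231 ± 12.2 in controls, and its log2 fold changes had SE of 0.061 and lay within 0.01 of 0.

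MRPL33, counterpart of bacterial L33, averaged 35.6 ± 3.09 CPM at 1:10000, 29.4 ± 5.05 at 1:40000 and 47.3 ± 3.10 in controls. It was lower than control at both dilutions, with log2 fold changes of -0.41 ± 0.11 and -0.71 ± 0.11. Its lowest library was 1:40000 replicate 1, at 20.9 CPM. MRPL49, mitochondria-specific, averaged 86.6 ± 3.97 CPM at 1:10000, 95.2 ± 8.20 at 1:40000 and 132 ± 5.6 in controls, with log2 fold changes of -0.60 ± 0.065 and -0.47 ± 0.064 and no overlap with control in either case. MRPL46 was called lower at 1:40000 and not at 1:10000, from few counts, and the log2 fold change between the dilutions was 0.24 ± 0.34 and not called. It averaged 1.99 ± 1.27 CPM at 1:10000, 1.71 ± 0.279 at 1:40000 and 2.89 ± 1.06 in controls, with overlap between all groups. MRPL37, MRPL49 and MRPL33 were chosen as examples after their values were seen, as were MRPL44, MRPL46 and MRPS22.

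The 4 genes MRPS5, MRPS18B, MRPL23 and MRPL45 were at or near 0 in every rinse aid library and were measured in every control library. MRPS5 (chr2:95087207-95149434), counterpart of bacterial S5 at the entry of the mRNA, had 0 counts in all 10 rinse aid libraries, against 68.5, 77.0, 68.6, 75 and 72.5 CPM in the control libraries. With a floor of 3 counts over the group, that is at least 843-fold lower at 1:10000 and at least 5467-fold lower at 1:40000. MRPS18B had 0 counts in both rinse aid groups and 34.6 to 40.5 CPM in controls, at least 431-fold lower at 1:10000 and at least 2796-fold lower at 1:40000.

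MRPL23, at the exit of the peptide tunnel, had 0 counts at 1:10000 and 30.0 to 38.7 CPM in controls, at least 397-fold lower. At 1:40000 it had 2 counts, a ratio of control to 1:40000 of 3858 (95% counting interval 1066 to 31888). MRPL45, which in mammals helps to bind the mitochondrial ribosome to the inner membrane, had 2 counts at 1:10000, 13 counts at 1:40000 and 20.4 to 28.6 CPM in controls. Its ratio of control to rinse aid was 415 at 1:10000 (115 to 3432) and 414 at 1:40000 (241 to 780). These floors and intervals cover counting error only.

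The split ran between the 10 rinse aid and the 5 control libraries, which differ in exposure, aligner and gene list together, and these cannot be told apart. In GENCODE 29, 4 of the 78 genes have a transcript copy outside the primary assembly: MRPL45, MRPS18B, MRPS12 and MRPS36. All 4 were lower than control at both dilutions, with log2 fold changes for MRPS12, part of the decoding centre, of -0.25 ± 0.098 at 1:10000 and -0.36 ± 0.096 at 1:40000. MRPS36 had 16.5, 15.1, 12.9, 13.0 and 15.7 CPM at 1:10000 and 9.70, 8.79, 14.3, 14.2 and 11.7 CPM at 1:40000, against 31.0, 31.7, 32.4, 31.9 and 30.8 CPM in controls. Both rinse aid groups lay below every control library, with log2 fold changes of -1.11 ± 0.12 and -1.40 ± 0.11. No such copy of MRPS5 or MRPL23 was found in that release, although MRPS5 was among 6 genes whose identifier version differed between the rinse aid and the control files.

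**Figure D5:**
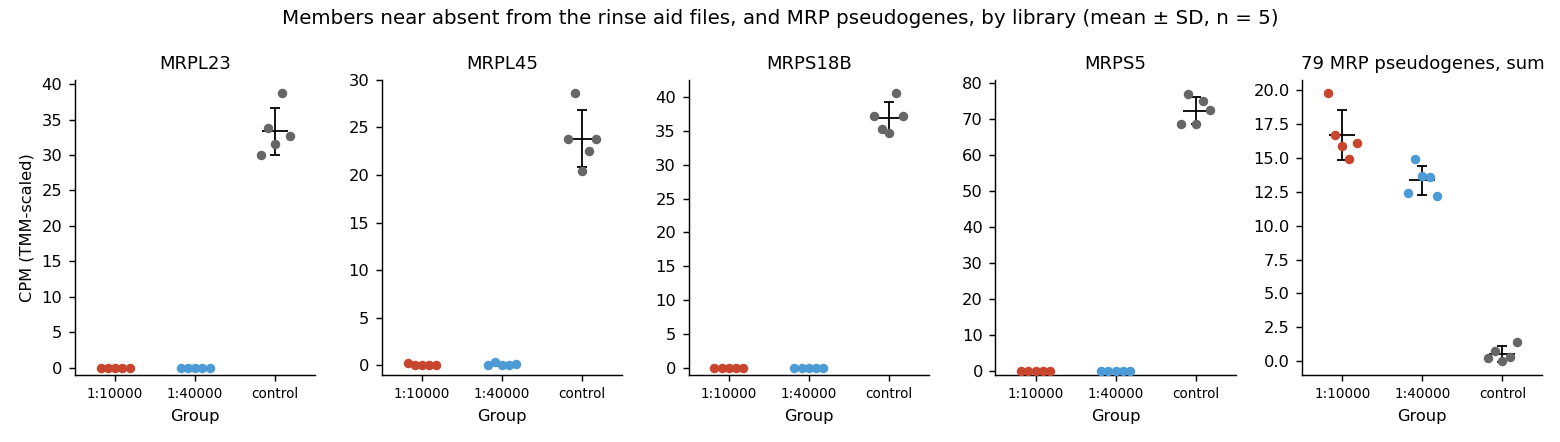
CPM per library (y axes, each with its own scale) at 1:10000, at 1:40000 and in controls for MRPL23, MRPL45, MRPS18B and MRPS5, and for the sum of 79 pseudogenes of the family; bars are mean ± SD over 5 libraries. The 4 genes stand at or near 0 in all 10 rinse aid libraries, and the pseudogene sum is 12.2 to 19.8 CPM there and at most 1.42 CPM in controls.

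Pseudogenes of the family, matched by symbol, differed the other way. The 79 measured pseudogenes named for 36 of these genes summed to 14.9 to 19.8 CPM at 1:10000 and 12.2 to 14.9 CPM at 1:40000, against 0 to 1.42 CPM in controls. Most of it was MRPL3P1, with 9.46 to 13.3 CPM at 1:10000, 7.48 to 9.17 at 1:40000 and 0 to 0.129 in controls. Its parent MRPL3 was higher at 1:10000 than in controls by 0.22 on the log2 scale. Next came MRPS36P1, which averaged 2.48 CPM at 1:10000, 2.64 at 1:40000 and 0.0454 in controls. MRPS18AP1 followed, with 1.15 CPM at 1:10000, 1.18 at 1:40000 and 0 in controls. The parents of these, MRPS36 and MRPS18A, were lower than control at both dilutions. A shift of reads between parents and pseudogenes was not tested. Adding the counts of pseudogenes to their parents left 17 higher and 30 lower genes at 1:10000 against control.

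The 3 MRPS18 genes are paralogs whose proteins take different places, MRPS18A in the large subunit and MRPS18B and MRPS18C in the small. MRPS18A averaged 44.2 ± 0.826 CPM at 1:10000, 43.5 ± 4.21 at 1:40000 and 49.98 ± 1.48 in controls. It was lower than control at both dilutions, with a log2 fold change of -0.18 in each, a call that was lost under several other settings, such as DESeq2 at 1:10000 (adjusted p of 0.0615 in that tool). MRPS18C averaged 24.5 ± 2.26 CPM at 1:10000, 21.9 ± 3.85 at 1:40000 and 25 ± 3.07 in controls and was not called in any comparison.

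Of 6 tested genes of the decoding region and mRNA channel, none was higher, and MRPS5, MRPS7, MRPS11, MRPS12 and MRPS28 were lower at 1:10000 than in controls, where 36.2% of all genes were lower. Of these, MRPS5 was at 0 in every rinse aid library, and MRPS12 has a copy outside the primary assembly and was not called under every alternative tried. MRPS7 averaged 50.7 ± 3.76 CPM at 1:10000, 69.4 ± 9.71 at 1:40000 and 97.1 ± 5.81 in controls, with no overlap between any groups and log2 fold changes against control of -0.94 ± 0.086 at 1:10000 and -0.48 ± 0.083 at 1:40000. Of 5 tested stalk genes, MRPL10 and MRPL1 were higher and MRPL11 lower at 1:10000, and MRPL10 was higher and MRPL11 and MRPL54 lower at 1:40000. MRPL27, of the central protuberance, was singled out after its values were seen, as a gene with no annotated copy or overlap. It averaged 66.3 ± 4.28 CPM at 1:10000, 62.7 ± 5.77 at 1:40000 and 108 ± 6.29 in controls, with log2 fold changes of -0.71 ± 0.073 and -0.80 ± 0.072 against control. Genes with a bacterial counterpart gave 10 higher and 22 lower of 47 at 1:10000 and 2 higher and 21 lower at 1:40000. Mitochondria-specific genes gave 7 higher and 8 lower of 27 at 1:10000, and 6 higher and 13 lower at 1:40000. The lower counts include the near-absent MRPS5, MRPS18B and MRPL23 in the former class and MRPL45 in the latter. In shares, 46.8% and 29.6% were lower at 1:10000, against 36.2% of all genes, and 44.7% and 48.1% at 1:40000, against 26%. Higher were 21.3% and 25.9% at 1:10000, against 34.8%, and 4.26% and 22.2% at 1:40000, against 26.1%.

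For MRPL the counts against control were 11 higher and 17 lower of 47 at 1:10000 and 5 higher and 21 lower at 1:40000. For MRPS they were 6 higher and 14 lower of 28, and 3 higher and 14 lower. At 1:10000 MRPL had 23.4% higher and 36.2% lower, and MRPS 21.4% and 50%, against 34.8% and 36.2% of all genes. At 1:40000 MRPL had 10.6% and 44.7%, and MRPS 10.7% and 50%, against 26.1% and 26%. Without the 4 near-absent genes 15 of 45 MRPL and 12 of 26 MRPS genes were lower at 1:10000. At 1:40000 the lower counts were then 19 and 12. The difference of the median log2 fold changes, MRPL minus MRPS, was 0.16 at 1:10000 and 0.13 at 1:40000, and it became 0.091 and 0.076 without control replicate 4. Without the 4 near-absent genes it was 0.10 at 1:10000 and 0.088 at 1:40000. No test was made of it.

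Between the dilutions the ribosomal RNAs with which these proteins assemble differed by more than any MRPL or MRPS transcript other than the near-absent ones. MT-RNR1 had 3574 to 4682 CPM at 1:10000 with a median of 4197, 1303 to 2099 at 1:40000 with a median of 1642, and 305 to 623 in controls with a median of 429. MT-RNR2 had 28738 to 38118 CPM at 1:10000, 4729 to 10196 at 1:40000 and 1739 to 2693 in controls. Neither gene overlapped between any 2 groups, and both were called higher in all 3 comparisons. Between the dilutions the log2 fold change was 1.27 ± 0.19 for MT-RNR1 and 2.15 ± 0.23 for MT-RNR2. Libraries were made from polyadenylated RNA, so these values need not follow the ribosomal RNA level of the cells, and mitochondrial genes have nuclear copies between which reads can be split.

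The 5 mitoribosomal proteins without an MRP symbol gave 1 higher and none lower between the dilutions, and 1 higher and 3 lower in each comparison with control. For this and the next 3 lists, the shares of all genes higher and lower were 28.3% and 29.1% between the dilutions, 34.8% and 36.2% at 1:10000 against control, and 26.1% and 26% at 1:40000 against control. The higher one was DAP3, a GTP-binding small-subunit protein, at 193 ± 12.6 CPM at 1:10000, 174 ± 10.2 at 1:40000 and 139 ± 7.71 in controls. The lowest was CHCHD1 of the small subunit, with log2 fold changes against control of -0.95 ± 0.13 at 1:10000 and -0.76 ± 0.13 at 1:40000. Of 24 tested assembly factors, 6 were higher and 2 lower between the dilutions, 9 higher and 9 lower, or 37.5% each, at 1:10000 against control, and 2 higher and 8 lower at 1:40000 against control. NSUN4, which methylates the small ribosomal RNA and joins the assembling subunits, was higher at 1:10000 than at 1:40000 by 0.62 ± 0.092 on the log2 scale and higher than in controls by 0.72 ± 0.095. MTG1 and TRUB2 were lower at 1:10000 than in controls, with log2 fold changes of -1.16 ± 0.22 and -1.09 ± 0.097.

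Of 13 tested translation factors, 4 were higher and none lower between the dilutions, among them the release factor MTRF1L (0.50 ± 0.11) and the initiation factor MTIF2 (0.37 ± 0.071). Against control 4 were higher and 1 lower at each dilution. At 1:10000 MTIF2 was at 0.63 ± 0.072 and TACO1, an activator of COX1 translation, at -3.71 ± 0.21. TACO1 was not called lower at 1:10000 than at 1:40000. In its difference from control exposure cannot be told apart from aligner and annotation. Of 19 tested genes of mitochondrial transcription and RNA binding, 7 were higher and 4 lower between the dilutions, 5 higher and 11 lower at 1:10000 against control, and 3 higher and 11 lower at 1:40000 against control. SUPV3L1, the helicase of mitochondrial RNA decay, was higher at 1:10000 than at 1:40000 by 0.79 ± 0.064 on the log2 scale and higher than in controls by 0.89 ± 0.065. MTERF1 and FASTKD5 were lower at 1:10000 than in controls, with log2 fold changes of -1.32 ± 0.17 and -1.03 ± 0.11.

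Cytosolic ribosomal proteins, measured in the same fit, are given only for scale. Of 75 tested, 62 were higher and 1 lower at 1:10000 than at 1:40000, with a median log2 fold change of 0.28, where the mitochondrial family had 27, 7 and 0.09. Against control they gave 66 higher and 2 lower at 1:10000 and 54 higher and 3 lower at 1:40000, with medians of 0.55 and 0.28, where the mitochondrial family had 17 and 31, and 8 and 35, with medians of -0.14 and -0.19. With the near-absent genes left out, the mitochondrial median was 0.12 between the dilutions. The mitochondrial medians against control were then -0.04 at 1:10000 and -0.18 at 1:40000. For the mitochondrial genes free of copies and overlaps they were 0.07 and -0.11. Of all genes, 28.3% were higher and 29.1% lower between the dilutions. Against control the shares were 34.8% and 36.2% at 1:10000, and 26.1% and 26% at 1:40000. In both comparisons with control, exposure cannot be told apart from aligner and annotation. No test of the difference between families was made.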

How the data were processed

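The authors deposited raw counts per Ensembl gene, 1 file for each of the 15 libraries. Per the submitters' processing notes, the tools were STAR 2.7.9a, DESeq2 1.32.0, featureCounts and cutadapt, and the build was GRCh38; no role or order is recorded. The strand setting is not given in the sources used here, so counts of genes that overlap, or that have near-identical copies, are uncertain. Of 78 genes, 41 share exon positions with another gene and 36 have a named pseudogene. Files were joined by identifier without version, and the shared genes held 99.977% or more of the counts in every library.

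Counts were fitted in R 4.3.3 with edgeR 4.0.16: TMM scaling (a trimmed mean of log ratios), the filterByExpr filter, 3 group means over all 15 libraries, a robust quasi-likelihood test and Benjamini-Hochberg adjustment within each comparison. Calls needed an adjusted p under 0.05. The fit was tested on simulated data. CPM values are TMM-scaled. DESeq2 1.42.0, other scalings, filters, sets of libraries and a replicate block were alternatives. Coordinates come from GENCODE 29 on GRCh38.

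Genes named were in each comparison, the 5 highest and 5 lowest called genes that averaged 5 CPM or more, genes at least 32-fold from control at both dilutions, extremes of level, untested genes, MRPS18 paralogs, and the called extremes of each pathway list. The genes and lists were chosen with earlier results of these data known. From the pathway lists 1 symbol was not matched.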

Additional observations from a re-analysis of the deposited data

Results flagged for a closer look

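In 69 groups of 5 libraries checked over the named genes, 1 library stood apart from the other 4 of its group. MRPL42, a mitochondria-specific protein of the large subunit, had 119 CPM in 1:40000 replicate 2, against 91.7, 94.3, 93.3 and 91.5 CPM in the other 1:40000 libraries. That library is the shallowest, with 2551839 counts. Chance alone flags about 1 in 20 such groups.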

How the results depend on the processing

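No called difference of a named gene changed direction under the alternatives run. The median of all genes, near 0, turned positive between the dilutions and at 1:10000 against control with RLE size factors, which moved it by 0.013 and 0.023. Among the 19 genes free of copies and overlaps the median at 1:10000 against control was 0.07, against -0.14. For the named genes, 1282 results under an alternative kept their side of the threshold, 49 called ones lost it and 9 uncalled ones passed it. Called under every alternative were 16 of 27 higher and 6 of 7 lower genes between the dilutions (19 alternatives), 16 of 17 and 28 of 31 at 1:10000 against control (18), and 4 of 8 and 23 of 35 at 1:40000 against control (19).

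Between the dilutions the lower count of 7 became 12 under upper-quartile scaling, 12 with no filter on low counts and 13 without the deepest and shallowest 1:40000 libraries, and the higher count of 27 became 16 with no filter. Among the 19 genes free of copies and overlaps the higher and lower counts were 9 and 1 between the dilutions, 6 and 6 at 1:10000 against control, and 2 and 8 at 1:40000 against control, by construction out of fewer genes. The difference of medians, MRPL minus MRPS, between the dilutions was 0.13 under upper-quartile scaling, 0.049 with no filter, 0.10 with the replicate block and 0.064 among those 19 genes, against 0.16. At 1:10000 against control it was 0.13 with pseudogene counts added to parents, an alternative chosen after seeing the data, and 0.22 among the 19 genes. At 1:40000 against control it was 0.17 among the 19 genes. Those 19 are 15 MRPL and only 4 MRPS genes, too few to read a difference between the subunits. The cause of these shifts was not tested.

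With each library left out in turn, the higher and lower counts ran from 21 to 30 and 6 to 14 between the dilutions, 16 to 19 and 28 to 32 at 1:10000 against control, and 5 to 8 and 27 to 37 at 1:40000 against control. The differences of medians ran from 0.074 to 0.18, 0.091 to 0.19 and 0.076 to 0.14. The lower count of 14 was reached without 1:40000 replicate 1 and the higher count of 5 without control replicate 1. The replicate numbers of the labels were not taken to pair the libraries in the main fit. Correlations of same-numbered libraries were all positive between the dilutions, at 0.046 to 0.28, and between 1:40000 and control, at 0.060 to 0.13. Between 1:10000 and control they were -0.050 to 0.058, on both sides of 0. Not every library correlated best with its own number, though 3 of 5 did between the dilutions and between 1:40000 and control. With the replicate block the counts were 30 and 8, 20 and 33, and 8 and 37. Over all genes, the block raised the calls between the dilutions from 7543 to 8011.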
